A study of Triticum aestivum with 12 samples.

Results

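In wheat crowns, 2 intervals of neighbouring gene models, on chromosomes 1B and 1D, hold models whose transcripts lay higher after freezing. Not every model in them did so. The members are the high-confidence gene models in identifier order from TraesCS1B01G383600 to TraesCS1B01G385300 and from TraesCS1D01G371200 to TraesCS1D01G373100, both ends included. The count table holds 15 such models on 1B and 17 on 1D, 32 of 128497 models in all. The intervals were picked because models in them lay higher after freezing in these same 12 libraries. The values of NTGF against NTG and of LTAF against LTA are therefore a description of what chose them, and no p-value is given for these comparisons. RNA came from crowns of the winter wheat cultivar Jing411, per the labels' extraction protocol, while the labels' tissue field reads SEEDING. NTG plants were grown at 20 °C for 28 days without acclimation, and NTGF plants were treated the same way and then kept at -5 °C for 24 hours. Acclimated plants, LTA, spent their 28 days at 4 °C, and LTAF plants did so too before 24 hours at -5 °C. The temperature drop into the freeze therefore differed between NTGF and LTAF. Each group has 3 biological replicates, per the series' design text. How many plants a replicate holds is not given in the sources used here.

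Bread wheat carries related subgenomes called A, B and D, so most genes exist as homoeologous copies on matching chromosomes, here 1A, 1B and 1D. Genes that arose by local duplication often lie side by side in tandem arrays, and such neighbours can share both sequence and regulation. The crown is the short stem base that holds the growing point, and survival of the crown decides whether a winter cereal regrows after frost. The files pair these identifiers with no gene name, function or sequence, and the wheat reference table matched 0 of them, so members are given by identifier and order alone. For the same reason the crown could not be checked against marker genes. Because copies on 1A, 1B and 1D and tandem neighbours can be near-identical, reads may be divided between them, and how such reads were counted is not given in the sources used here.

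Library totals ran from 17871036 to 21491305 counts. A model enters the tests only if it passes a filter on low counts, and 27 of the 32 members passed, 13 on 1B and 14 on 1D. Models close to 0 without freezing pass that filter only through the groups in which they are high, so counts over these 27 carry that selection. Levels are in CPM, the counts of a model relative to its library's size after TMM scaling, fold changes are edgeR's on the log2 scale with their standard error, and a model is called at an edgeR adjusted p under 0.05 over all 69693 models tested. CPM is not divided by gene length, so it compares one model across libraries and not models with each other.

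Of the 27 tested members, 15 were called higher in NTGF than in NTG, where 14.2% of all tested models were, and 1 was called lower, where 11.7% of all were. In LTAF against LTA, 12 were called higher against a background of 3.99%. By edgeR 0 were called lower there, against a background of 1.92%; 0 had an unadjusted p under 0.05 in that direction, and DESeq2 and limma-voom also called 0. Groups that do not overlap were also counted: all NTGF libraries lay above all NTG libraries for 16 members and below for 2 (21.9% and 20.2% of all tested models), and all LTAF libraries above all LTA libraries for 15 and below for 1 (13.8% and 13.9%). Since these comparisons chose the intervals, nothing is read from these counts. By calls, 10 members were higher in both freezing comparisons, 5 in NTGF but not in LTAF, and 2 in LTAF but not in NTGF. The remaining 10 tested members were called higher in neither. A call in 1 comparison without a call in the other does not show that the responses differ. On 1D the same 7 members were called in both comparisons. On 1B, 3 were called in both, 5 in NTGF alone and 2 in LTAF alone. The median log2 fold change over the tested members was 1.57 in NTGF and 0.85 in LTAF, beside 0.04 and -0.03 over all tested models. In bulk RNA, a change in the share of a cell type and a change of RNA per cell cannot be told apart. Without LTA replicate 2 or 3 the count of 12 became 7.

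**Figure D1:**
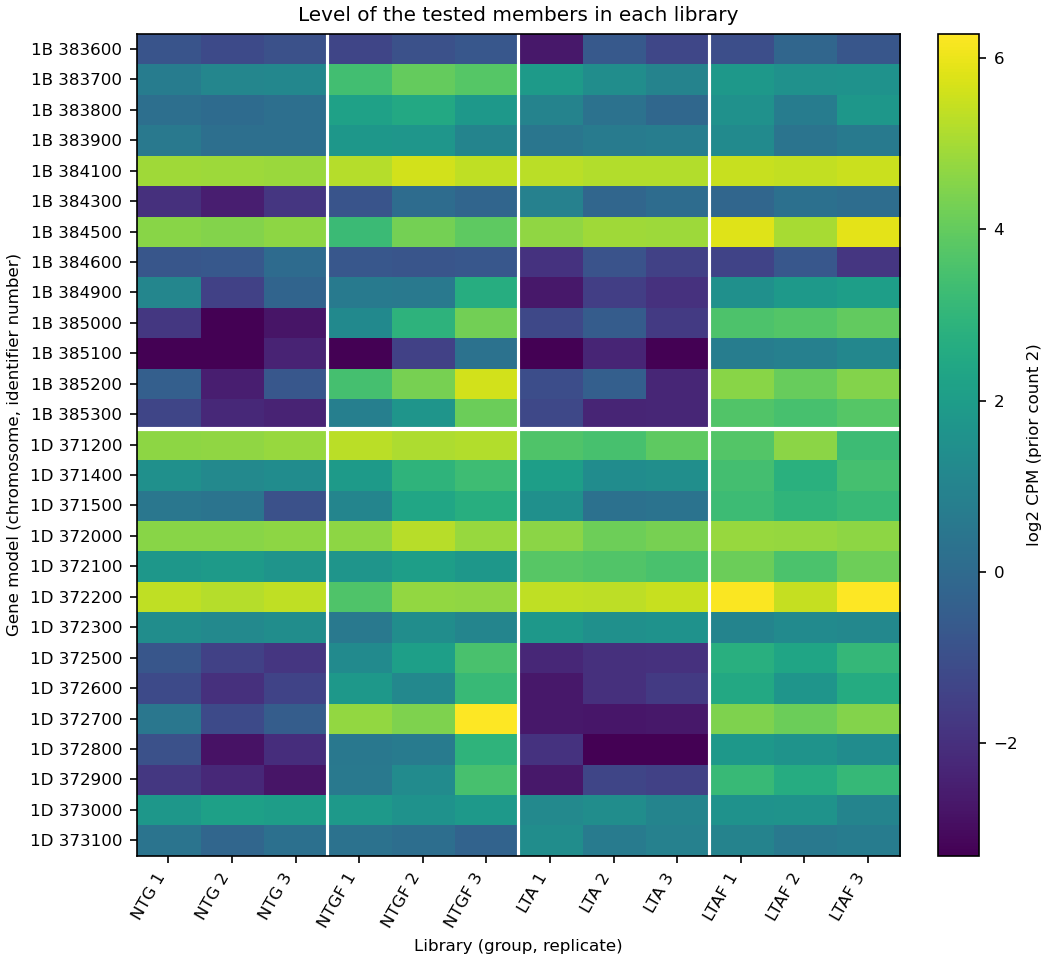
Level of the 27 tested members in each of the 12 libraries, in log2 CPM with a prior count of 2; rows follow identifier order, with 1B above and 1D below the white line, and columns are grouped as NTG, NTGF, LTA and LTAF. Blocks of 5 rows at the end of 1B and near the end of 1D are mostly dark in NTG and LTA and brighter in NTGF and LTAF. On 1B, TraesCS1B01G385100 lies at -3.31 and -1.45 in NTGF replicates 1 and 2. TraesCS1B01G384900 is brighter in NTG replicate 1 than in NTGF replicates 1 and 2.

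In LTAF against LTA the 5 largest fitted responses of each interval came from models with consecutive numbers, and on 1D the same 5 led in NTGF. On 1B these are TraesCS1B01G384900, TraesCS1B01G385000, TraesCS1B01G385100, TraesCS1B01G385200 and TraesCS1B01G385300, the last 5 members there. On 1D they are TraesCS1D01G372500, TraesCS1D01G372600, TraesCS1D01G372700, TraesCS1D01G372800 and TraesCS1D01G372900, followed by 2 members that were not called on freezing. These 10 models were singled out after their values were seen, and they are called the 10 neighbours here. Their log2 fold changes ran from 1.57 to 6.75 on 1B and from 4.04 to 5.78 on 1D in NTGF, and from 4.40 to 6.09 and from 5.05 to 8.45 in LTAF. The other 17 tested members ran from -0.89 to 2.81 in NTGF and from -0.48 to 2.38 in LTAF. All 10 neighbours were called higher in LTAF and 8 of them in NTGF. That count of 10 in LTAF was 7 without LTA replicate 2 or 3 and 7 with limma-voom.

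**Figure D2:**
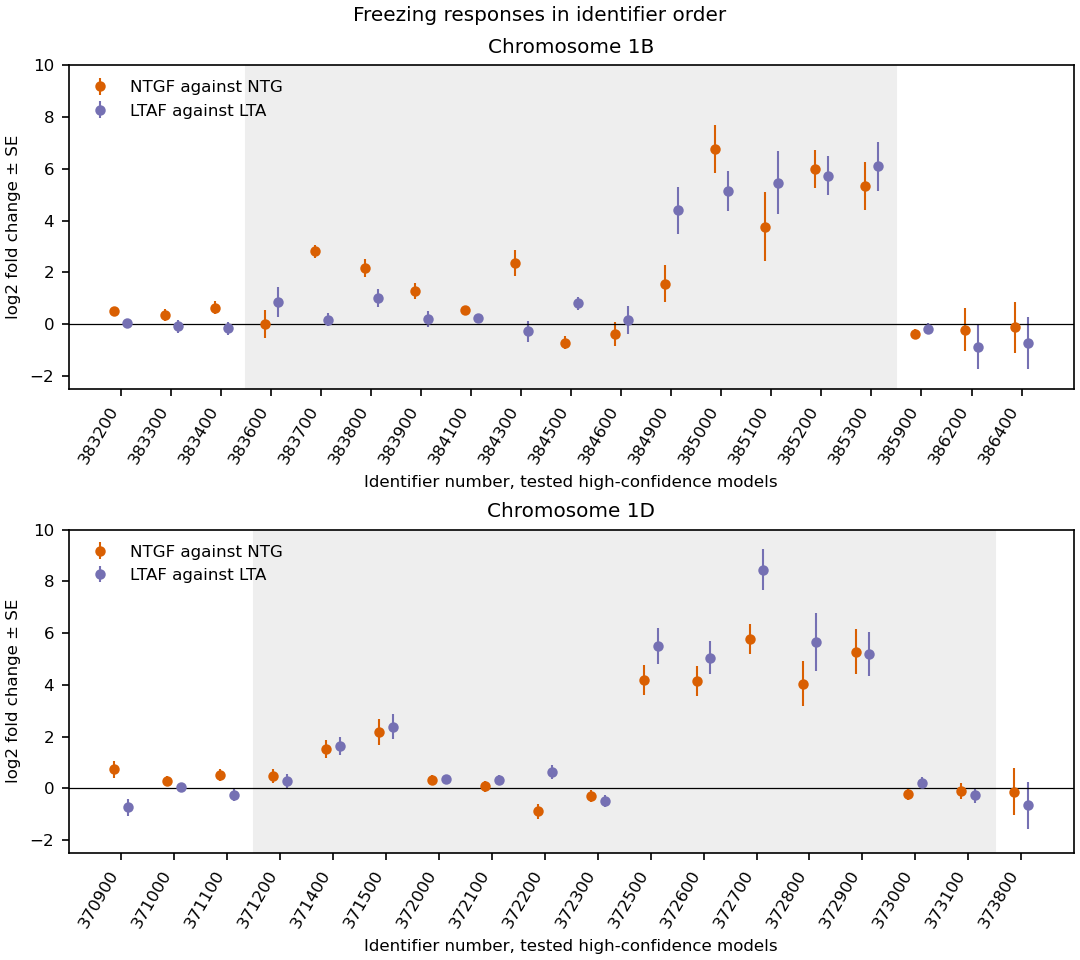
Log2 fold change with its standard error (edgeR) of the tested high-confidence models in identifier order, for NTGF against NTG and LTAF against LTA; the grey area holds the members, and the tested models among the 3 on either side are shown outside it. The 5 highest points of each comparison on 1D, and of LTAF on 1B, belong to consecutive models inside the grey area.

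TraesCS1B01G385200 is the 1B neighbour with the most counts. In NTG its replicates 1, 2 and 3 lay at 0.652, 0.0766 and 0.518 CPM, and in LTA at 0.385, 0.649 and 0.105 CPM. After freezing the NTGF libraries lay at 10.9, 19.6 and 49.8 CPM and the LTAF libraries at 23.5, 16.3 and 22.4 CPM. Every frozen library therefore lay above every unfrozen one, while the spread within NTGF was wide (26.8 ± 20.4, SD, n = 3) and that within LTAF narrow (20.7 ± 3.88, SD, n = 3). The log2 fold change was 6.001 ± 0.73 in NTGF and 5.74 ± 0.75 in LTAF.

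TraesCS1B01G385000 went from 0.192, 0 and 0.0471 CPM in NTG to 2.25, 7.40 and 18.8 in NTGF. In LTA it lay at 0.330, 0.599 and 0.210 CPM and in LTAF at 12.2, 13.2 and 15.6. Neither pair of groups overlapped, and the fold changes were 6.75 ± 0.93 and 5.13 ± 0.78 on the log2 scale. TraesCS1B01G385300 lay at 0.307, 0.115 and 0.0942 CPM in NTG and 0.330, 0.0999 and 0.105 in LTA. Its frozen libraries reached 1.69, 3.14 and 17.4 CPM in NTGF and 12.7, 11.1 and 13.4 in LTAF. NTGF replicate 3 alone reached the LTAF level of this model, and its log2 fold changes were 5.34 ± 0.92 in NTGF and 6.09 ± 0.96 in LTAF.

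The remaining 1B neighbours, TraesCS1B01G384900 and TraesCS1B01G385100, were called in LTAF but not in NTGF. The difference between their freezing responses, LTAF minus NTGF, was 2.84 ± 1.17 and 1.70 ± 2.65 on the log2 scale, and neither was called. TraesCS1B01G384900 lay at 2.03, 0.268 and 0.753 CPM in NTG and 1.48, 1.38 and 6.31 in NTGF, so these groups overlapped (log2 fold change 1.57 ± 0.70, not called). In LTA it lay at 0.0550, 0.250 and 0.157 CPM and in LTAF at 2.74, 3.48 and 4.10, which do not overlap (log2 fold change 4.40 ± 0.91). TraesCS1B01G385100 had 2 counts over the 3 NTG libraries and 2 over the 3 LTA libraries. With 0, 5 and 20 counts in the NTGF libraries it stood at a ratio of 16.3 (95% exact counting interval 4.08 to 142) to NTG and was not called. In the LTAF libraries it had 28, 30 and 34 counts, a ratio of 51.5 (95% exact counting interval 13.9 to 432) to LTA, and it was called. These intervals cover counting error only.

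On 1D, TraesCS1D01G372700 had the most counts among the neighbours after freezing. Its NTG libraries lay at 1.30, 0.345 and 0.612 CPM, and each LTA library held 1 count. The NTGF libraries lay at 26.3, 21.7 and 77.8 CPM (log2 fold change 5.78 ± 0.58). In LTAF the values were 21.5, 17.6 and 22.5 CPM, a ratio of 391 (95% exact counting interval 133 to 1899.5) to LTA. All 6 frozen libraries lay above all 6 unfrozen ones.

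TraesCS1D01G372500 went from 0.499, 0.268 and 0.188 CPM in NTG to 2.35, 4.15 and 11.5 in NTGF, and from 0.110, 0.150 and 0.157 in LTA to 6.61, 4.90 and 8.39 in LTAF. TraesCS1D01G372600 went from 0.345, 0.153 and 0.282 to 3.37, 2.13 and 8.73 CPM without acclimation and from 0.0550, 0.150 and 0.210 to 5.47, 3.14 and 5.91 with it. Both models separated frozen from unfrozen libraries completely, with log2 fold changes of 4.18 and 4.16 in NTGF and of 5.51 and 5.05 in LTAF. TraesCS1D01G372900 lay at 0.192, 0.115 and 0.0471 CPM in NTG, 1.38, 2.39 and 11.3 in NTGF, 0.0550, 0.300 and 0.262 in LTA and 8.72, 6.16 and 8.64 in LTAF. Its freezing responses were 5.29 ± 0.88 and 5.19 ± 0.84 on the log2 scale, and the groups did not overlap. TraesCS1D01G372800 had 11, 1 and 3 counts in the NTG libraries and 26, 28 and 134 in NTGF (log2 fold change 4.04 ± 0.87). With 3, 0 and 0 counts in LTA and 60, 52 and 40 in LTAF, the LTAF level was 56.7 (95% exact counting interval 19.0 to 278) times that of LTA.

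**Figure D3:**
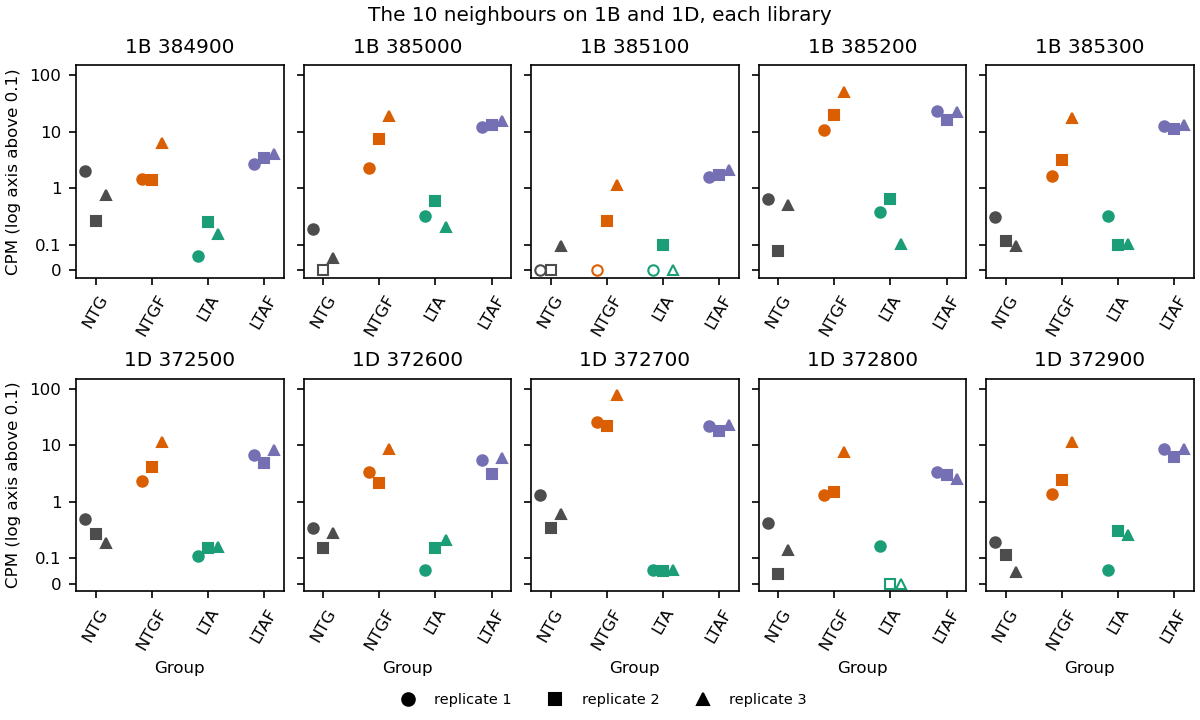
CPM of the 10 neighbours in each library, 1 panel per model and 1 marker shape per replicate; the axis is logarithmic above 0.1 CPM and linear below, and open markers are libraries with no count. NTGF replicate 3 is the highest NTGF library in all 10 panels, while the LTAF replicates lie close together.

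Summed over the 5 neighbours on 1B, the NTG libraries held 3.19, 0.460 and 1.51 CPM and the NTGF libraries 16.3, 31.8 and 93.4 CPM. The LTA libraries held 1.10, 1.70 and 0.577 CPM and the LTAF libraries 52.7, 45.7 and 57.6. The 1D sums were 2.76, 0.920 and 1.27 CPM in NTG, 34.7, 31.8 and 117 in NTGF, 0.440, 0.649 and 0.682 in LTA and 45.7, 34.8 and 47.9 in LTAF. Over all 10 neighbours the frozen groups averaged 108 ± 88.6 and 94.8 ± 12.9 CPM (NTGF and LTAF, SD, n = 3), so the groups differed far more in spread than in mean. The other 22 members together held 163 ± 4.58 CPM in NTG and 189.6 ± 30.4 in NTGF (SD, n = 3). They held 173 ± 7.40 in LTA and 251 ± 34.3 in LTAF.

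A single library carried much of the NTGF level. NTGF replicate 3 was the highest NTGF library for all 10 neighbours and lay at least 2-fold above both other NTGF libraries for all 10. Across all tested models it was the highest NTGF library in 28.6% and at least 2-fold above both in 4.85%. Among the 1403 models called higher in both freezing comparisons these shares were 71.1% and 26.6%, and the median ratio of replicate 3 to the mean of the other two was 1.55, against 4.15 for the 10 neighbours. For the other 17 tested members that ratio was 1.02. Without NTGF replicate 3, 8 of the 10 neighbours were called higher in NTGF than in NTG. The share of all tested models called in that fit is not given here, so nothing is read from this count. Log2 fold changes without that library ran from 0.48 to 5.78 on 1B and from 2.76 to 4.97 on 1D. With it they ran from 1.57 to 6.75 and from 4.04 to 5.78. In the unfrozen controls NTG replicate 1 was the highest library for 9 of the 10 neighbours, where it was the highest for 35.2% of all tested models.

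The make-up of the sums also differed between the frozen groups, as shares of the 5-model sum in a library. TraesCS1D01G372700 made up 75.7%, 68.1% and 66.6% of the 1D sum in NTGF replicates 1, 2 and 3, and 47.0%, 50.7% and 47.0% in the LTAF replicates. TraesCS1D01G372900 made up 3.98%, 7.53% and 9.64% in NTGF and 19.1%, 17.7% and 18.03% in LTAF. On 1B, TraesCS1B01G385200 made up 66.8%, 61.6% and 53.3% of the sum in NTGF and 44.5%, 35.7% and 38.9% in LTAF. TraesCS1B01G385300 made up 10.3%, 9.88% and 18.6% and 24.1%, 24.2% and 23.2%. For these 4 models the NTGF and LTAF libraries did not overlap, and NTGF replicate 3 lay on the side of the other NTGF libraries in each. The share of the 10-model sum that came from 1B was 32.0, 49.96 and 44.4% in NTGF and 53.6, 56.8 and 54.6% in LTAF. These shares were chosen after the values were seen and were not tested.

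**Figure D4:**
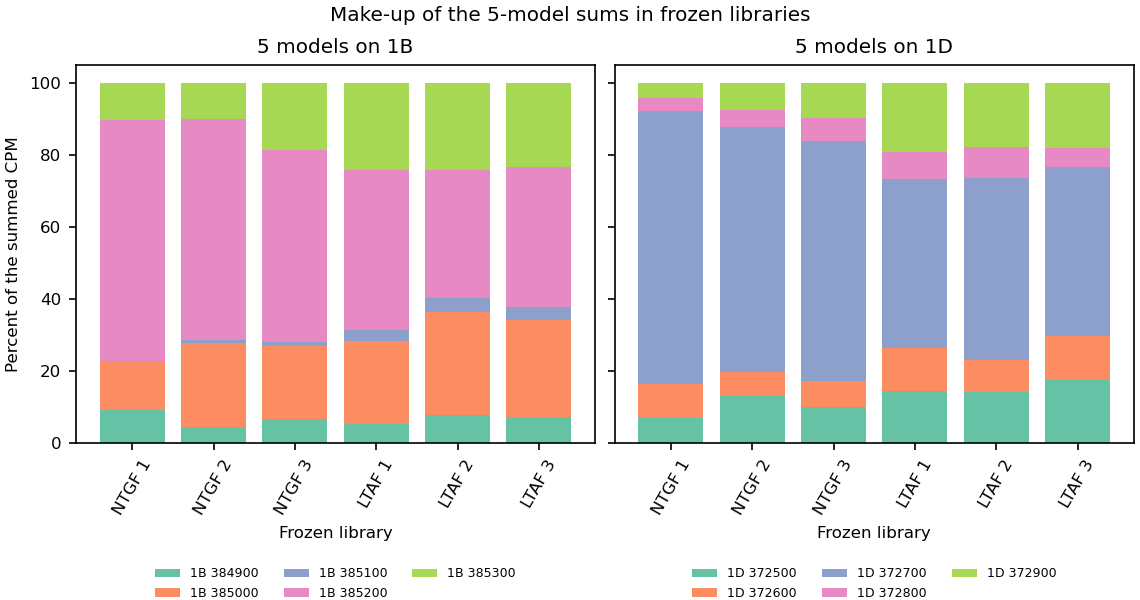
Percent of the summed CPM of the 5 neighbours on 1B (left) and on 1D (right) that each model makes up, for the 3 NTGF and 3 LTAF libraries; each bar adds up to the whole sum. The part of TraesCS1D01G372700 lies between 66.6% and 75.7% in NTGF and between 47.0% and 50.7% in LTAF.

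LTAF against NTGF asks whether the level reached after the freeze differed between acclimated and unacclimated plants. The intervals were not chosen on this comparison, but both of its groups belong to the freezing comparisons that chose them. The 10 neighbours were moreover singled out for their LTAF against LTA response, which a high LTAF level raises. Their values here are therefore a description with no p-value. By edgeR's quasi-likelihood test 0 of the 10 neighbours were called, where 20.2% of all tested models were called higher and 19.6% lower. At an unadjusted p under 0.05, 1 was higher and 1 lower, while DESeq2 called 0 and limma-voom called 1 higher. Their log2 fold changes ran from -1.03 to 1.97. TraesCS1B01G385100 lay highest, at 1.97 ± 0.85 (not called), with all 3 LTAF libraries above all 3 NTGF libraries. TraesCS1D01G372700 lay lowest, at -1.03 ± 0.45 (not called), and was called lower without NTGF replicate 2. The mean of LTAF lay above NTGF replicates 1 and 2 for 9 of the 10 neighbours each, and below NTGF replicate 3 for 9 of the 10. These shares over all tested models are not given here, and reads may be divided between neighbours. Nothing is therefore read from these counts. Without NTGF replicate 3, 5 of the 10 were called higher in LTAF. These were TraesCS1B01G385000 (1.503 ± 0.52), TraesCS1B01G385100 (3.72 ± 0.93), TraesCS1B01G385300 (2.36 ± 0.38), TraesCS1D01G372500 (1.03 ± 0.35) and TraesCS1D01G372900 (2.05 ± 0.40, log2 fold changes). The share of all tested models called without NTGF replicate 3 is not given here, so nothing is read from that count. The calls among the 10 neighbours changed with that library, and its part in the result beyond these values was not tested.

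LTA against NTG compares the same models after 28 days at 4 °C and after 28 days at 20 °C, both without freezing. Whether the plants of these groups had reached the same growth stage was not tested, here or in LTAF against NTGF. By edgeR, 3 of the 27 tested members were called higher and 4 lower in LTA, where 20.0% and 18.1% of all tested models were. All LTA libraries lay above all NTG libraries for 7 members and below for 6, beside 29.0% and 31.2% of all tested models. NTG was the control of NTGF and LTA the control of LTAF, so both groups entered the comparisons that chose the members. The 10 neighbours were moreover singled out for their LTAF against LTA response, which a low LTA level raises, so their values here are a description with no p-value. Among the 10 neighbours 2 were called lower and 0 higher, with 0 higher at an unadjusted p under 0.05, 1 higher by DESeq2 and 0 by limma-voom. TraesCS1D01G372700 had 3 counts over the LTA libraries and 56 over the NTG libraries, a ratio of 0.0686 (95% exact counting interval 0.0137 to 0.211). All 3 LTA libraries lay below all 3 NTG libraries for this model, and its call was lost with limma-voom and without the filter on low counts, which it passed through the frozen groups. TraesCS1B01G384900 had a log2 fold change of -2.66 ± 0.95, with no overlap of the groups, but 11 of 19 alternatives lost the call. Without NTG replicate 1, which lay at 2.03 CPM, its log2 fold change was -1.63. The call was also lost without NTG replicate 3, LTA replicate 1, 2 or 3, or LTAF replicate 1, 2 or 3. For the other 8 neighbours the log2 fold change ran from -1.83 to 2.15. Summed over the 10, the LTA libraries lay at 1.54, 2.35 and 1.26 CPM and the NTG libraries at 5.95, 1.38 and 2.78, which overlap.

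Before the 5 neighbours, the 1B interval held models with other patterns. TraesCS1B01G383700 lay at 1.54, 2.03 and 2.07 CPM in NTG and 10.4, 15.96 and 13.3 in NTGF, without overlap (log2 fold change 2.81 ± 0.26). It lay at 3.68, 2.55 and 1.89 in LTA and 3.36, 2.85 and 2.92 in LTAF, which overlap (log2 fold change 0.17 ± 0.26, not called). LTAF was lower than NTGF (called), with a log2 fold change of -2.12 ± 0.25 and 3 of 3 libraries below the 3 others. A high NTGF level also raises the response in NTGF against NTG, which chose the intervals. This difference is therefore a description with no p-value. The next models, TraesCS1B01G383800 and TraesCS1B01G383900, were called higher in NTGF too, at log2 fold changes of 2.15 ± 0.34 and 1.28 ± 0.31, and neither was called in LTAF (0.99 ± 0.35 and 0.20 ± 0.31). In NTGF they averaged 4.45 ± 1.02 and 2.81 ± 0.776 CPM, beside 0.997 ± 0.0672 and 1.15 ± 0.200 in NTG (SD, n = 3).

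TraesCS1B01G384300 was the 1B member called higher in LTA. It had 4, 2 and 4 counts in the NTG libraries and 32, 16 and 18 in LTA. The log2 fold change was 3.03 ± 0.48, with 3 of 3 libraries higher. A low NTG level also raises the response in NTGF against NTG, which chose the intervals, so no p-value is given. Freezing gave 9, 18 and 14 counts in NTGF and 14, 19 and 16 in LTAF, with a call in NTGF alone (log2 fold changes 2.37 ± 0.50, called, and -0.28 ± 0.40, not called). TraesCS1B01G384500 went the other way on freezing without acclimation. Its libraries lay at 23.6, 22.4 and 24.9 CPM in NTG, 9.35, 19.2 and 14.8 in NTGF, 25.8, 29.9 and 29.1 in LTA and 56.2, 32.9 and 59.0 in LTAF. All NTGF libraries lay below all NTG libraries and all LTAF libraries above all LTA libraries, although neither freezing comparison was called. With scaling by library totals NTGF was called lower, at a log2 fold change of -1.03. LTAF was higher than NTGF by 1.77 ± 0.26 on the log2 scale (edgeR adjusted p = 0.000397; 9.93e-09 to 0.0108 over the alternatives), with 3 of 3 libraries higher. TraesCS1B01G384100 lay at 30.4, 29.5 and 28.5 CPM in NTG and 36.7, 49.9 and 41.4 in NTGF. In LTA it lay at 39.3, 36.3 and 36.5 CPM and in LTAF at 44.8, 42.0 and 46.1. Without overlap it was higher in NTGF and in LTA than in NTG, and higher in LTAF than in LTA. It was called higher in NTGF with a log2 fold change of 0.53 ± 0.13, and with scaling by library totals the value was 0.21 and not called. In LTA against NTG its value was 0.34 ± 0.13 (not called), and with scaling by library totals the difference was -0.0043. No p-value is given, for the reason stated for TraesCS1B01G384300. TraesCS1B01G384100 was called there with DESeq2, with the compared groups alone and without NTGF replicate 1 or 2. TraesCS1B01G383600 and TraesCS1B01G384600, below 1 CPM in each library, were called in none of the 4 comparisons of groups. TraesCS1B01G384000 and TraesCS1B01G384700 did not pass the filter, with 1 and 53 counts over all libraries.

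The 1D interval opens with TraesCS1D01G371200, which was lower in the acclimated groups. It lay at 25.1, 25.4 and 27.9 CPM in NTG and 39.6, 34.2 and 36.0 in NTGF, and at 12.5, 11.1 and 14.9 in LTA and 13.1, 24.1 and 9.57 in LTAF. LTA was lower than NTG, with a log2 fold change of -1.02 ± 0.27 (edgeR adjusted p = 0.0103; 0.000152 to 0.0449 over the alternatives), and LTAF was lower than NTGF, with a log2 fold change of -1.23 ± 0.27 (edgeR adjusted p = 0.0039; 5.51e-05 to 0.038 over the alternatives). In both comparisons 3 of 3 acclimated libraries lay below the 3 others. TraesCS1D01G371400 and TraesCS1D01G371500, its next neighbours in the table, were called higher in both freezing comparisons. TraesCS1D01G371400 lay at 2.73, 2.18 and 2.45 CPM in NTG, 3.68, 7.56 and 9.86 in NTGF, 4.07, 2.45 and 2.62 in LTA and 10.6, 6.78 and 10.9 in LTAF, with log2 fold changes of 1.51 ± 0.34 and 1.63 ± 0.34. TraesCS1D01G371500 averaged 0.972 ± 0.479 and 4.53 ± 2.30 CPM in NTG and NTGF, and 1.67 ± 0.936 and 8.64 ± 0.800 in LTA and LTAF (SD, n = 3). Its log2 fold changes on freezing were 2.19 ± 0.50 and 2.38 ± 0.49. For both models the frozen libraries lay above the unfrozen ones of the same acclimation.

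TraesCS1D01G372100 was called in both comparisons of acclimation and in neither of freezing. Its libraries lay at 3.30, 3.68 and 3.01 CPM in NTG and 3.17, 4.10 and 3.27 in NTGF, against 13.6, 12.7 and 11.3 in LTA and 17.5, 11.8 and 17.97 in LTAF. All 6 acclimated libraries lay above all 6 others. LTA was higher than NTG by 1.91 ± 0.19 on the log2 scale (edgeR adjusted p = 2.02e-05; 2.4e-15 to 0.000265 over the alternatives) and LTAF was higher than NTGF by 2.16 ± 0.19 (edgeR adjusted p = 2.09e-05; 1.26e-18 to 0.00293 over the alternatives). Its freezing responses were 0.07 ± 0.19 and 0.33 ± 0.18, neither called. TraesCS1D01G372200 was, like TraesCS1B01G384500, lower in NTGF than in NTG in 3 of 3 libraries. It lay at 41.4, 36.9 and 41.0 CPM in NTG and fell to 12.3, 26.4 and 25.5 in NTGF, and lay at 41.2, 40.3 and 44.0 in LTA and 74.3, 43.2 and 77.0 in LTAF, which overlap. The fall in NTGF had a log2 fold change of -0.89 ± 0.27 and was the single lower call on freezing. That call was lost without NTG replicate 1, 2 or 3, or NTGF replicate 1, with the replicate number as a block and with the compared groups alone in the fit. LTAF was higher than NTGF by 1.60 ± 0.28 (edgeR adjusted p = 0.0011; 1.64e-06 to 0.0196 over the alternatives), with 3 of 3 libraries higher. Whether TraesCS1D01G372200 and TraesCS1B01G384500 are homoeologs is not recorded in the files.

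TraesCS1D01G372000 lay at 23.7, 23.8 and 25.0 CPM in NTG, 24.9, 38.5 and 27.5 in NTGF, 24.3, 18.1 and 19.7 in LTA and 27.8, 26.8 and 24.9 in LTAF, and was not called in any comparison of groups with TMM scaling. With scaling by library totals it was called lower in LTA than in NTG, at a log2 fold change of -0.57 (edgeR adjusted p = 0.0178). All 3 LTAF libraries of TraesCS1D01G372000 lay above all 3 LTA libraries. TraesCS1D01G373000 lay at 3.34, 4.29 and 3.95 CPM in NTG and 2.20, 2.55 and 1.94 in LTA, a log2 fold change of -0.79 ± 0.22 with 3 of 3 libraries lower (edgeR adjusted p = 0.0144; 0.00265 to 0.0601 over the alternatives). The call was lost without NTG replicate 2 (adjusted p = 0.057) or LTA replicate 3 (adjusted p = 0.0601). TraesCS1D01G373100, the last member, rose from 1.19, 0.805 and 1.08 to 2.53, 1.498 and 1.78 CPM, by 0.91 ± 0.29 on the log2 scale in 3 of 3 libraries (edgeR adjusted p = 0.0269; 0.0217 to 0.122 over the alternatives). Its call was lost in 6 of 19 alternatives, among them those without NTG replicate 2 or 3 or LTA replicate 1 or 3. TraesCS1D01G372300 was not called in any comparison of groups. TraesCS1D01G371600, TraesCS1D01G371800 and TraesCS1D01G372400 did not pass the filter. Of these, TraesCS1D01G372400 had 5 counts in NTG and 24 in NTGF, and 4 in LTA and 21 in LTAF, over 3 libraries each.

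**Figure D5:**
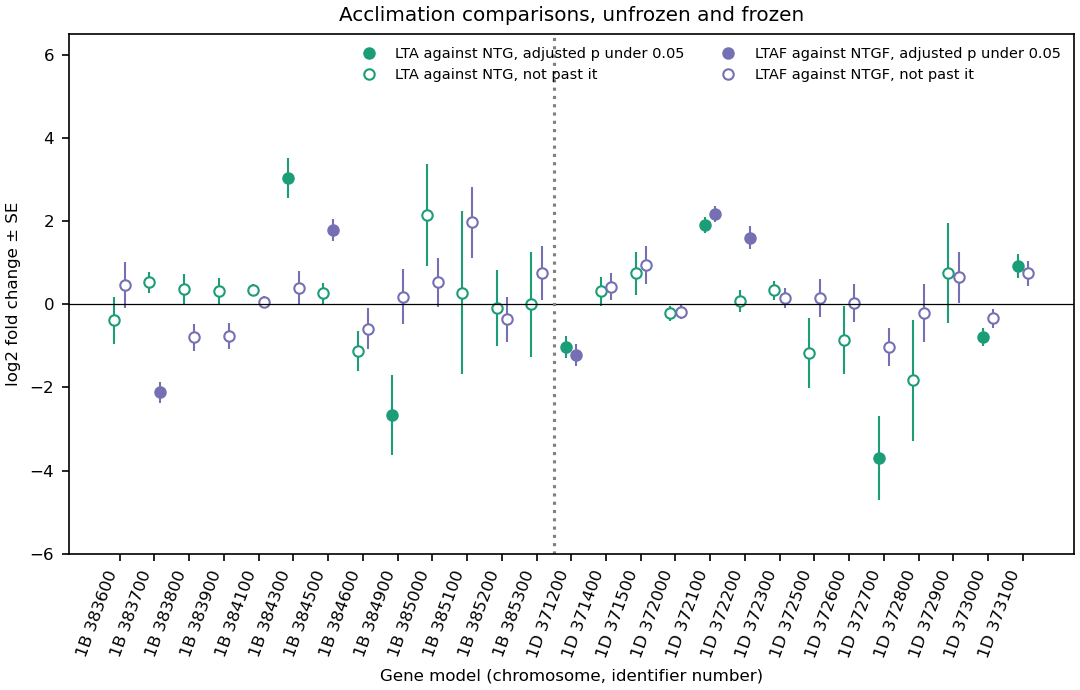
Log2 fold change with its standard error (edgeR) of the 27 tested members for LTA against NTG and LTAF against NTGF; filled points passed an adjusted p of 0.05 and open points did not, and the dotted line divides 1B from 1D. TraesCS1D01G372100 lies near 2 in both comparisons, and the 5 neighbours of each chromosome are open in LTAF against NTGF.

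Over all 27 tested members LTAF against NTGF gave 3 higher calls, against a background of 20.2%, and 2 lower calls, against 19.6%. The 3 higher are TraesCS1B01G384500, TraesCS1D01G372100 and TraesCS1D01G372200, and the 2 lower are TraesCS1B01G383700 and TraesCS1D01G371200. All LTAF libraries lay above all NTGF libraries for 6 members and below for 3, beside 22.4% and 21.6% of all tested models. Without NTGF replicate 3 the count of higher members was 8, and the share of all tested models in that fit is not given here. The interaction term, built from the comparisons that chose the intervals, was called positive for 2 members and negative for 2, shares near the 5.12% and 5.91% of all tested models, and nothing is read from these counts. The positive calls numbered 0 without NTG replicate 1, LTA replicate 1 or 3, or LTAF replicate 1 or 3, and also 0 under the replicate block.

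The high responses on 1B ended with the last member. This model, TraesCS1B01G385300, stood at log2 fold changes of 5.34 and 6.09 in NTGF and LTAF, and the next high-confidence model in the table, TraesCS1B01G385900, at -0.39 and -0.17. The first 1B member, TraesCS1B01G383600, stood at 0.01 and 0.85, and TraesCS1B01G383400 before it at 0.64 and -0.16. On 1D the first member, TraesCS1D01G371200, stood at 0.49 and 0.28, and TraesCS1D01G371100 before it at 0.52 and -0.25. The last, TraesCS1D01G373100, stood at -0.10 and -0.27, and TraesCS1D01G373400 after it had too few counts to test. Among the 20 high-confidence models on each side, 32 of 40 were tested around the 1B interval and 28 of 40 around the 1D interval. Of these, 4 and 5 were called higher in NTGF (medians 0.13 and 0.15 on the log2 scale), and 2 and 2 in LTAF (medians -0.14 and 0.13). Over all tested models these shares were 14.2% and 3.99%. Lower calls numbered 3 and 4 in NTGF, and 1 and 0 in LTAF (11.7% and 1.92% of all tested models). A flanking model picked after its values were seen, TraesCS1B01G381400 before the 1B interval, also held more counts in most frozen libraries. It had 0, 1 and 0 counts in NTG and 22, 1 and 59 in NTGF, so NTGF replicate 2 held no more counts than NTG replicate 2. In LTA it had 0, 0 and 1 counts and in LTAF 26, 42 and 12.

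Chromosome 1A, the remaining chromosome of this homoeologous group, was looked at in the same way. Its 15-model window with the highest mean log2 fold change in NTGF against NTG, of 2424 tested high-confidence models, began at TraesCS1A01G366900. That mean was 1.56, with 8 of 15 models called higher, where the highest windows of 1B and 1D had means of 2.17 and 1.89, ending at TraesCS1B01G385300 and TraesCS1D01G372900. In LTAF against LTA the highest 1D window again held the interval's neighbours (mean 2.33, 7 called higher), but the highest 1B window lay elsewhere on the chromosome (mean 2.46, 4 called higher). The highest 1A window in that comparison (mean 1.54, 1 called higher) did not hold the first models of its NTGF window. At the start of the 1A window in NTGF lie TraesCS1A01G366900, TraesCS1A01G367000, TraesCS1A01G367100 and TraesCS1A01G367200, singled out after their values were seen. Together they held 1.61, 0.728 and 0.847 CPM in NTG and 5.62, 9.21 and 26.4 in NTGF. They held 1.15, 1.55 and 1.26 CPM in LTA and 23.1, 14.8 and 25.7 in LTAF. All 4 were called higher in NTGF and 2 in LTAF, beside 14.2% and 3.99% of all tested models. The windows were chosen for their high means and the 4 models for their values. Nothing is therefore read from these counts or from those of the windows. NTGF replicate 3 was again the highest NTGF library, and whether these models are copies of the 1B and 1D neighbours is not recorded in the files.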

How the data were processed

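RNA sequencing counts of 12 libraries were used, in 4 groups of 3 replicates taken from the labels' titles, with columns assigned to libraries through their names. The authors deposited raw read counts per gene model, per the file headers, as whole numbers with no normalization. Which aligner, counter, build and annotation were used is not given in the sources used here. The replicates are called biological in the design text, which does not say whether they came from separate plantings, so p-values measure the spread between these samples, which may be in part technical.

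From the counts, models were filtered with filterByExpr (minimum count 10), which left 69693 of 128497. Library sizes were scaled with TMM, and a mean per group was fitted to all 12 libraries in edgeR 4.0.16 (R 4.3.3) with robust quasi-likelihood F tests and Benjamini-Hochberg adjustment over all tested models. The common biological coefficient of variation was 0.273. CPM uses the TMM-scaled sum over tested models. The interaction subtracts the log2 fold change of NTGF against NTG from that of LTAF against LTA. A group with 1 to 3 counts over its 3 libraries is given as a ratio with a 95% exact counting interval. Reads carry no molecular identifiers, so such intervals cover counting error only. The fit was tested on simulated counts.

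The members and lists were chosen with earlier results of these data known. The rule for named members took the 6 on each chromosome with the highest group mean CPM, and up to 6 more called in LTA against NTG or LTAF against NTGF. Other members named with values were chosen after these were seen. The alternatives were DESeq2 size factors, library totals, no filter, DESeq2 1.42.0, limma-voom (limma 3.58.1), the replicate number as a block, the compared groups alone, and each library left out.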

Additional observations from a re-analysis of the deposited data

Results flagged for a closer look

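For 4 members edgeR's interaction term, which sets the freezing response of acclimated plants against that of unacclimated ones, was called. The term is built from the comparisons that chose the intervals, so its values are a description. Of the 27 tested members 2 were called positive and 2 negative, where 5.12% and 5.91% of all tested models were. TraesCS1B01G383700 had an interaction of -2.64 on the log2 scale, and was called higher on freezing in NTGF but not in LTAF. TraesCS1B01G384300 stood at -2.64 as well, being higher in NTGF than in NTG while LTA was already above NTG. TraesCS1B01G384500 stood at 1.52 and TraesCS1D01G372200 at 1.53, both with NTGF below NTG in 3 of 3 libraries. Positive calls numbered 0 without NTG replicate 1, LTA replicate 1 or 3, or LTAF replicate 1 or 3, 1 without NTG replicate 2 or 3 or LTA replicate 2, and 5 without NTGF replicate 3. Negative calls numbered 1 without NTG replicate 1 or 2, NTGF replicate 2, LTA replicate 1, or LTAF replicate 1 or 3. None of the 10 neighbours was called in the interaction by edgeR, DESeq2 or limma-voom; 2 had a positive term with an unadjusted p under 0.05, and 3 were called positive without NTGF replicate 3.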

How the results depend on the processing

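Counts of members called higher in NTGF against NTG (14 to 16) stayed within 1.5 times of 15 under all 19 alternatives, and 0 lower calls in LTAF against LTA stayed 0. The cause of the changes below was not tested. Scaling by library totals shifted the median of all tested models by -0.34 (LTA against NTG), -0.31 (NTGF against NTG) and -0.12 (LTAF against NTGF) on the log2 scale. It moved the mean log2 fold change in LTA against NTG to -0.11 on 1B (0.23 with TMM) and -0.67 on 1D (-0.33), lower calls in NTGF to 2 (from 1) and lower calls in LTAF against NTGF to 4 (from 2). Without the filter, lower calls were 2 in LTA (from 4) and 2 in NTGF. limma-voom gave 2 lower calls in LTA, 2 in NTGF and 5 higher calls in LTAF against NTGF (from 3). DESeq2 gave 5 higher calls in LTA (from 3) and 2 lower in NTGF, and the compared groups alone gave 5 and 0. Leaving out each library in turn gave 2 to 4 higher and 2 to 4 lower calls in LTA, 0 to 2 lower in NTGF, 7 to 14 higher in LTAF against LTA, and 3 to 8 higher and 2 to 3 lower in LTAF against NTGF. Interaction calls ranged from 0 to 5 positive and from 1 to 2 negative. Mean log2 fold changes ranged from -0.15 to 0.50 on 1B and -0.59 to -0.076 on 1D in LTA, and from 2.15 to 2.69 and 2.44 to 2.76 in LTAF against LTA. The replicate block gave 0 lower calls in NTGF and 0 positive and 1 negative interaction calls, from 1, 2 and 2. What a replicate number shares is not given in the labels. Same-numbered libraries of different groups had correlations of their deviations from group means from -0.44 to 0.20 (2 of 18 over 0.1). Differently numbered ones ranged from -0.37 to 0.44 (15 of 36 over 0.1), and 1 of 12 libraries correlated best with its own number. Deviations within a group of 3 sum to 0, so this check cannot exclude pairing. Depth limits models near 0 in unfrozen crowns, where 1 count is about 0.05 CPM.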
